A study of Mus musculus with 4 samples.

Results

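The contacts of INT1 and INT2, neighbouring elements of Tcra/Tcrd, the shared mouse locus of the T cell receptor alpha and delta chains, were compared within double-negative thymocytes (CD4- CD8-, here DN). The comparison used 2 of the 4 samples of the series, DN replicates 1 and 2, and from each of them the INT1 and the INT2 profile, which makes 4 of 16 profiles. The DN cells came from thymi of C57BL/6 Rag2-/- mice aged 3 weeks, which lack the recombinase needed to rearrange the locus, and all 4 profiles share this genotype. The cells came from litters, and the labels do not say whether the replicates were separate litters, so the spread between these samples may be technical. The p-values rest on this spread, and those from fitted models also on the spread of other positions in the same test. Naive B cells of the spleen of wild-type C57BL/6 mice, also with 2 samples, were used only to ask whether the contrast differed between cell types.

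In 4C-seq, crosslinked chromatin is cut, religated and amplified by inverse PCR from 1 chosen fragment, the viewpoint, so that reads count the fragments ligated to it. Tcrd lies inside Tcra: the V segments lie on the lower-coordinate side, followed by the D and J segments and the constant gene of Tcrd, then by the J-alpha segments and the constant gene of Tcra. In the RefSeq gene table of mouse build GRCm38 this order is Trdv4, Trdd1, Trdd2, Trdj1, Trdj2, Trdc, Trdv5, Traj61 to Traj1, Trac and Dad1. CTCF is a DNA-binding protein that, together with cohesin, anchors chromatin loops, and the names INT1 and INT2 are used for neighbouring CTCF-bound elements between the V segments and the Tcrd D segments. The labels themselves do not define them. Ed (E-delta) is the enhancer of Tcrd near Trdc, and TEA (T early alpha) is the germline promoter at the start of the J-alpha array, which also holds a CTCF site.

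The viewpoint fragments lay on chromosome 14 of build mm9, which the submitters' processing notes name. The INT1 fragment spanned chr14:54677060-54677623 (564 bp) and the INT2 fragment chr14:54680988-54683873 (2886 bp), with centres 5.09 kb apart. The Ed fragment spanned chr14:54763263-54765182 and the TEA fragment chr14:54769627-54773311, 70.3 and 76.6 kb above the stretch that was left out. This stretch, chr14:54667000-54693000, holds both INT viewpoints and touched 12 HindIII fragments. Every value below is a share of the chromosome 14 reads outside it, so a higher share in some regions lowers the shares of others. Positions below the stretch are called the lower side, where the V segments lie, and positions above it the upper side, where Trdc and the J-alpha segments lie. No gene was assigned to a single window or fragment, because the annotation used here is of another build.

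The 4 DN profiles held between 1907814 and 15046827 mapped reads, and between 203292 and 1526556 reads on chromosome 14 outside the stretch. The shallowest was INT2 in replicate 1. A count of 3 reads corresponds to between 0.000197% and 0.00148% of these reads. The reads carry no molecular identifiers and are not independent molecules, so limits from counts cover counting error only. The share within 1 Mb of the stretch was 52.3% and 71.4% from INT1 and 61.4% and 71.9% from INT2 (replicates 1 and 2), so replicate 1 had the lower share from both viewpoints. Each DN replicate has its own sequencing folder per the file headers. The differences within replicate 1 and within replicate 2 are therefore also the values within each batch.

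The first comparison asked on which side of the elements the contacts lie. INT1 contacted both sides about equally, whereas INT2 contacted the upper side more than the lower. Within 1 Mb, INT1 had 26.5% and 32.5% of its reads on the lower side and 25.8% and 38.9% on the upper side (replicates 1 and 2). INT2 had 14.7% and 22.0% on the lower side and 46.7% and 49.9% on the upper side. The side index, the log2 of lower-side over upper-side reads, was 0.04 and -0.26 from INT1 and -1.67 and -1.18 from INT2, and these ranges do not overlap.

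INT1 exceeded INT2 in this index by 1.71 in replicate 1 and by 0.92 in replicate 2, a mean of 1.32 ± 0.55 (SD, n = 2 pairs), or a 2.49-fold difference in the ratio of the sides. The exact permutation test gave p = 0.5 over the 2 pairs and p = 0.333 over the 4 profiles, two-sided, which are the smallest values such small designs allow. The difference was larger close to the elements. INT2 lies nearer the upper side and INT1 nearer the lower side. The centre of the first fragment above the stretch was 19.3 kb from INT1 and 14.2 kb from INT2. Distance was not accounted for here or in the regions, windows and fragments below, and its part in the difference was not tested. Within 100 kb the ratio of lower to upper reads was 1.12 and 0.875 from INT1 and 0.135 and 0.190 from INT2, a 6.17-fold difference, and within 20 kb it was 7.98-fold. Over the whole chromosome it was 1.76-fold. When each captured fragment was counted once in place of its reads, the difference in the index within 1 Mb was 0.026, and with fragments capped at the 95th percentile it was 0.64.

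**Figure D1:**
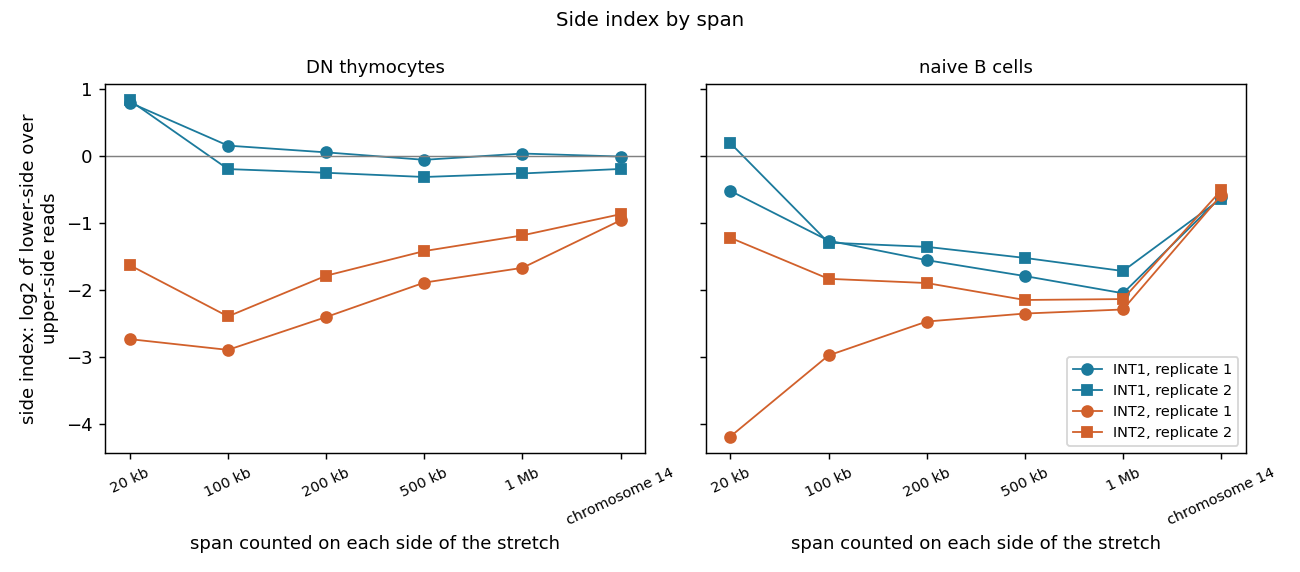
Side index, the log2 of lower-side over upper-side reads, for spans from 20 kb to the whole chromosome on each side of the excluded stretch, in DN thymocytes (left) and naive B cells (right). Each point is 1 profile, lines join the spans of a profile, and in DN thymocytes both INT2 profiles lie below both INT1 profiles at every span.

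Chromosome 14 was next divided into 11 regions that do not overlap, and 14 more were read that overlap them (bands, sides, and the surroundings of Ed and TEA), 25 in all. INT2 made more contacts than INT1 in the stretch of locus that leads up to the Tcrd enhancer, and INT1 made more than INT2 in the 20 kb below the elements. These were the 2 of 25 regions (8%) that passed the threshold of an adjusted p of 0.05 (limma on log2 values with the replicate as a block, Benjamini-Hochberg over the 25 regions). Without the block 8 regions were called higher from INT2 and 1 higher from INT1. These 8 overlap in part and all lie within 100 kb above the stretch. The region around TEA and the region around Ed and TEA hold the same 13 fragments, so they are 1 result counted as 2. The median difference over the 25 regions was -0.13 on the log2 scale, INT2 minus INT1.

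From the end of the excluded stretch to 10 kb before the Ed fragment (chr14:54693000-54753263, 21 fragments), INT1 had 5.03% and 7.63% of reads and INT2 had 18.3% and 21.1%. Both INT2 values lie above both INT1 values, by 3.64-fold in replicate 1 and 2.77-fold in replicate 2. The log2 difference was 1.67 ± 0.24 (SE, n = 2 pairs), 3.18-fold, with an adjusted p of 0.0449 (limma). This direction held in 18 of 18 alternatives. Models without the block or with a mean-variance trend leave the difference unchanged and could not turn it. The alternatives that leave out a replicate are the pairs given above. Of the 16 with a test 11 passed, among them all the settings added after the data were seen. With fragments capped at the 95th percentile the log2 difference was 0.94 and passed (adjusted p = 0.0332). The call was lost with a mean-variance trend (adjusted p = 0.0604), with scaling to reads beyond 1 Mb (adjusted p = 0.110), with the excluded stretch widened by 10 kb (adjusted p = 0.0545), with each fragment counted once (adjusted p = 0.195) and with edgeR on recovered reads (adjusted p = 0.0682). All 21 fragments were captured in every profile. Single counting therefore gives 0.79 here from the profile totals alone, near the 0.74 of the median region.

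Around Ed and TEA (chr14:54753263-54783311, 13 fragments), INT1 had 2.84% and 5.78% of reads and INT2 had 14.9% and 10.1%. The ranges do not overlap, but the pairs differed in size, 5.26-fold in replicate 1 and 1.75-fold in replicate 2. The log2 difference of 1.60 ± 0.46 (SE) had an adjusted p of 0.0642 (limma) and did not pass.

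On the TEA fragment alone, INT1 had 0.624% and 1.18% of reads and INT2 had 6.34% and 3.41%, a 5.42-fold difference (log2 2.44 ± 0.51 SE, adjusted p = 0.0507, limma). With this fragment capped at the 95th percentile the log2 difference was 0.49 (adjusted p = 0.143, limma). The TEA fragment sat at the cap in every profile, so this 0.49 reflects the caps and cannot check the difference. This single fragment took 42.5% and 33.7% of the INT2 reads around Ed and TEA, and 22.0% and 20.4% of the INT1 reads there. On the Ed fragment, INT1 had 0.381% and 0.548% and INT2 had 1.07% and 0.853%, a 2.09-fold difference with an adjusted p of 0.0642 (limma). The fragments differ in length, 3685 bp for TEA and 1920 bp for Ed, so their levels were not set against each other.

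On the lower side the order was turned. In the 20 kb below the stretch (chr14:54647000-54667000, 8 fragments) INT1 had 1.33% and 2.21% of reads and INT2 had 0.50% and 0.853%. INT1 was 2.66-fold higher in replicate 1 and 2.59-fold higher in replicate 2. The log2 difference of -1.39 ± 0.21 (SE) had an adjusted p of 0.0449 (limma), and 9 of 15 alternatives with a test passed. These 9 include every setting added after the data were seen that covers this band.

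From 20 to 100 kb below, INT1 had 8.04% and 10.1% and INT2 had 4.06% and 5.18%, 1.96-fold less, with an adjusted p of 0.0507 (limma). Over the whole last 200 kb below the stretch INT1 had 15.9% and 19.6% and INT2 had 7.62% and 11.3%. Both INT1 values again lie above both INT2 values. The log2 difference there was -0.93 ± 0.23 (SE), with an adjusted p of 0.0596 (limma), and 5 of 16 alternatives with a test passed. All of these 5 except scaling to reads within 1 Mb (adjusted p = 0.0156, limma) were added after the data were seen. With TMM factors the difference was -0.62 (adjusted p = 0.174, limma). With each captured fragment counted once, every band on the lower side turned to values above 0, but so did the median region (0.74), and nearly all fragments near the elements were captured from both: 60 and 61 of 63 in the last 200 kb from INT1, and 61 and 61 from INT2. The contrast close to the elements therefore lay in reads per fragment and not in which fragments were captured.

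**Figure D2:**
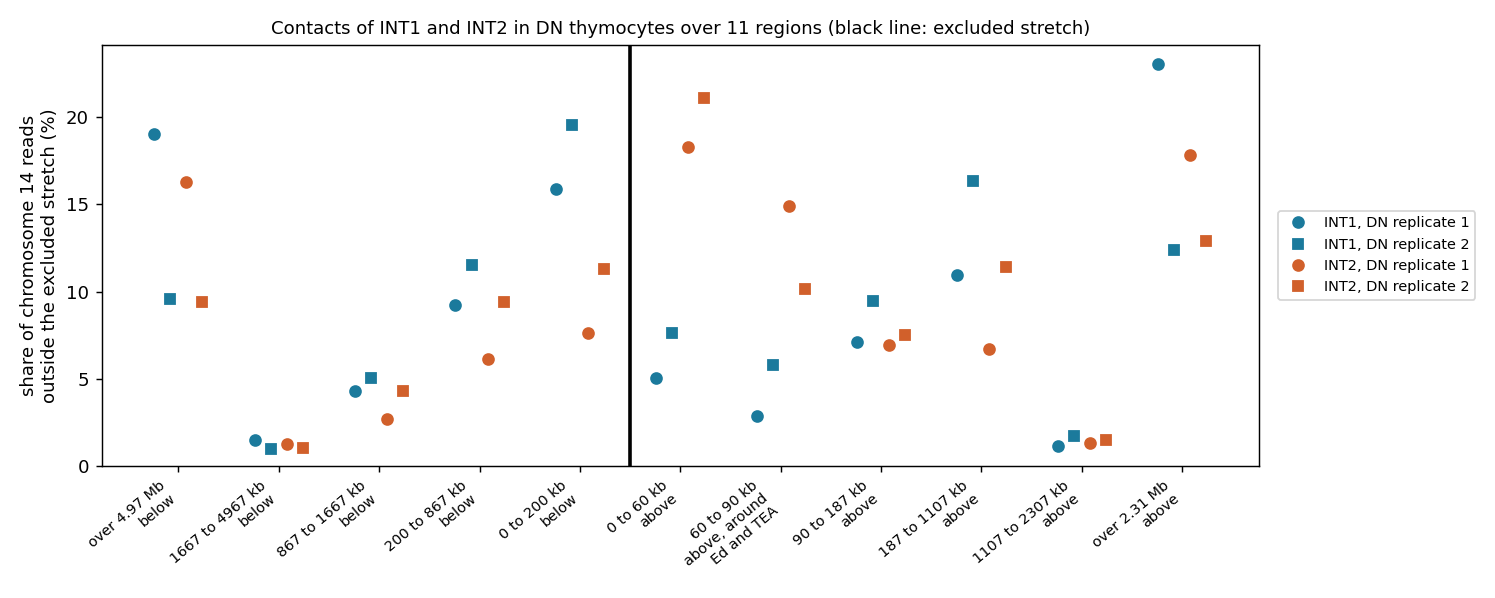
Share of chromosome 14 reads outside the excluded stretch (%) in 11 regions ordered from the centromere side to the telomere side, named by their distance from the stretch, with 1 point per profile in DN thymocytes. INT2 takes 18.3% and 21.1% in the region just above the stretch against 5.03% and 7.63% from INT1, and INT1 takes more in the 200 kb below it.

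The other regions differed less. Over the J-alpha side, from 10 kb above the TEA fragment to chr14:54880000, INT1 had 7.10% and 9.45% and INT2 had 6.95% and 7.50%. The log2 difference was -0.18 ± 0.23 (SE), which turned to 0.12 with TMM factors and to 0.11 with capped fragments, and the ranges overlap. From there to 55.8 Mb INT1 had 10.95% and 16.3% and INT2 had 6.72% and 11.4%, a difference of -0.61 ± 0.22 (SE) with an adjusted p of 0.103 (limma). On the V side farther than 200 kb, the region from 53.8 Mb up to 54.467 Mb differed by -0.44 ± 0.23 (SE) and that from 53 to 53.8 Mb by -0.46 ± 0.24 (SE). Both had an adjusted p of 0.185 (limma), and in both INT1 was higher within each replicate. The remaining 4 regions, from 49.7 to 53 Mb, from 55.8 to 57 Mb and the ends of the chromosome beyond them, had differences between -0.16 and 0.00.

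The position of the contrast was then resolved in 10 kb windows. INT2 was above INT1 in an unbroken run of 9 windows from the upper edge of the stretch to 54.78 Mb, which ends 6.69 kb past the TEA fragment. In this run the log2 differences lay between 0.78 and 2.54, with a median of 1.34, and each window was higher from INT2 in both replicates. Over all 188 windows tested within 1 Mb, 27 (14.4%) were higher from INT2 in both replicates and 96 (51.1%) were higher from INT1 in both, and the median difference was -0.67. In the next 10 windows, up to 54.88 Mb, 0 were higher from INT2 in both replicates and 3 were higher from INT1 in both. Their median was -0.15 and their range -0.54 to 0.57. The run thus ended next to TEA, at the start of the J-alpha side.

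The 9 windows of the run kept their direction in both replicates with scaling to all chromosomes, to reads within 1 Mb or beyond 1 Mb, with TMM factors and with capped fragments, as did the 8 of them left with the widened stretch. Among the 10 windows beyond, 5 were higher from INT2 in both replicates with TMM factors, which moved the median of all windows from -0.67 to -0.34. Of the 19 windows tested in the 200 kb below the stretch, 14 were higher from INT1 in both replicates and 1 was higher from INT2, with a median of -0.96. That count was between 12 and 16 under these scalings.

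**Figure D3:**
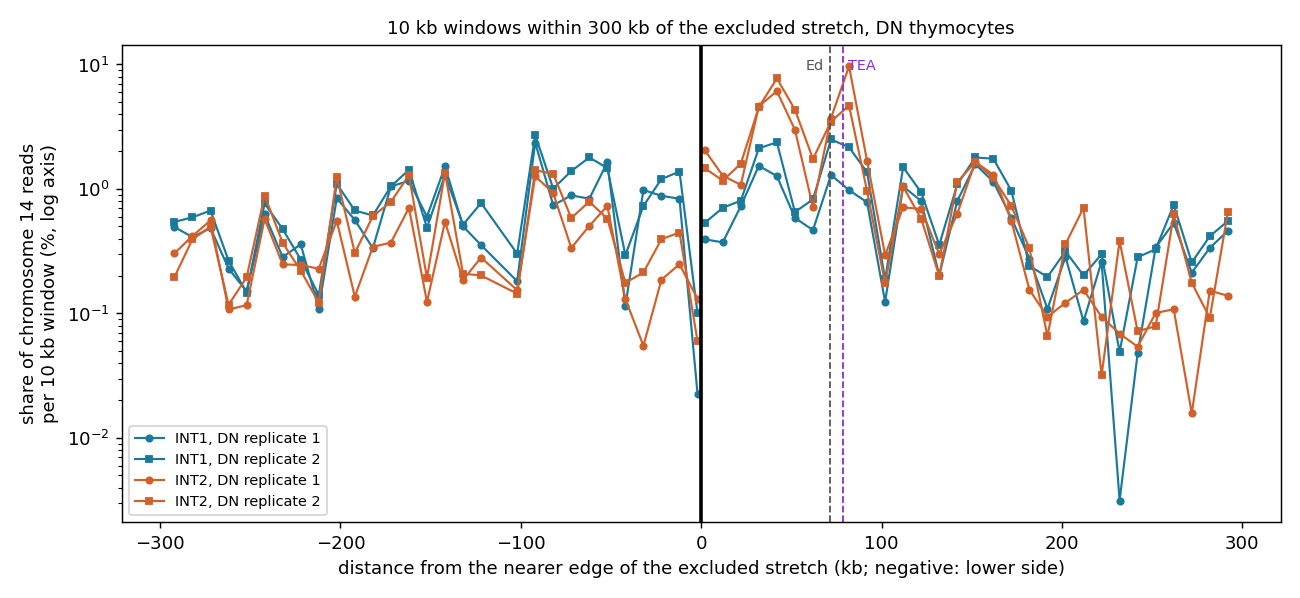
Share of chromosome 14 reads per 10 kb window (%, log axis) against the distance from the nearer edge of the excluded stretch (kb), 1 line per DN profile, with the Ed and TEA viewpoint fragments as dashed lines. In each replicate the INT2 line lies above the INT1 line from the stretch to just past TEA, and mostly below it on the lower side.

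Of the 188 windows, 6 (3.19%) passed an adjusted p of 0.05, 3 in each direction (1.6% each; limma with a mean-variance trend and the replicate as a block, Benjamini-Hochberg over the windows), and 40 had an unadjusted p under 0.05. The 3 windows higher from INT2 lay between the stretch and Ed. The window chr14:54740001-54750000 had 0.585% and 0.652% of reads from INT1 and 2.99% and 4.33% from INT2, a log2 difference of 2.54 ± 0.37 (SE, adjusted p = 0.0141). It holds 1 fragment. The window chr14:54730001-54740000, with 7 fragments, had 1.27% and 2.37% from INT1 and 6.11% and 7.73% from INT2 (log2 difference 1.99 ± 0.42, adjusted p = 0.0396). The window chr14:54690001-54700000, with 1 fragment outside the stretch, had 0.394% and 0.534% from INT1 and 2.04% and 1.47% from INT2 (1.92 ± 0.39, adjusted p = 0.0396). In each of the 3, both INT2 values lie above both INT1 values. With fragments capped at the 95th percentile, the log2 differences of these windows, in the same order, were 0.49 (adjusted p = 0.6015), 1.26 (adjusted p = 0.07245) and 0.52 (adjusted p = 0.6015, limma), and none of the 3 passed. The 1 fragment of the first window sat at the cap in every profile, so its 0.49 reflects the caps and cannot check that window.

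The 3 windows higher from INT1 adjoined each other on the V side, from 54.63 to 54.66 Mb. The window chr14:54650001-54660000 had 0.834% and 1.38% from INT1 and 0.248% and 0.447% from INT2 (log2 difference -1.68 ± 0.37 SE, adjusted p = 0.0443). In chr14:54640001-54650000 INT1 had 0.881% and 1.2% and INT2 had 0.187% and 0.395% (-1.92 ± 0.39, adjusted p = 0.0396). In chr14:54630001-54640000, which holds 1 fragment, INT1 had 0.981% and 0.731% and INT2 had 0.0551% and 0.213% (-2.95 ± 0.59, adjusted p = 0.0396). With capped fragments these windows, in the same order, had -1.14 (adjusted p = 0.163), -1.68 (adjusted p = 0.0181) and -1.86 (adjusted p = 0.07245, limma). The groups do not overlap in any of the 3, and all 6 windows had the same sign in every alternative run on 10 kb windows. Models without the block or the trend, and other filters, leave the difference as it is and could not turn a sign.

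The number of calls depended on the model, the filter and the window size. It was 0 in both directions without the replicate block, without the trend, in 5 kb windows, with the stricter filter on low windows and with edgeR on recovered reads. It was 10 higher from INT2 and 4 higher from INT1 with DESeq2. The split of the calls moved with the scaling: 50% were higher from INT2 in the fit described, 37.5% with scaling to all chromosomes, 38.5% with scaling to reads within 1 Mb, 33.3% with the widened stretch and 77.8% with TMM factors.

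**Figure D4:**
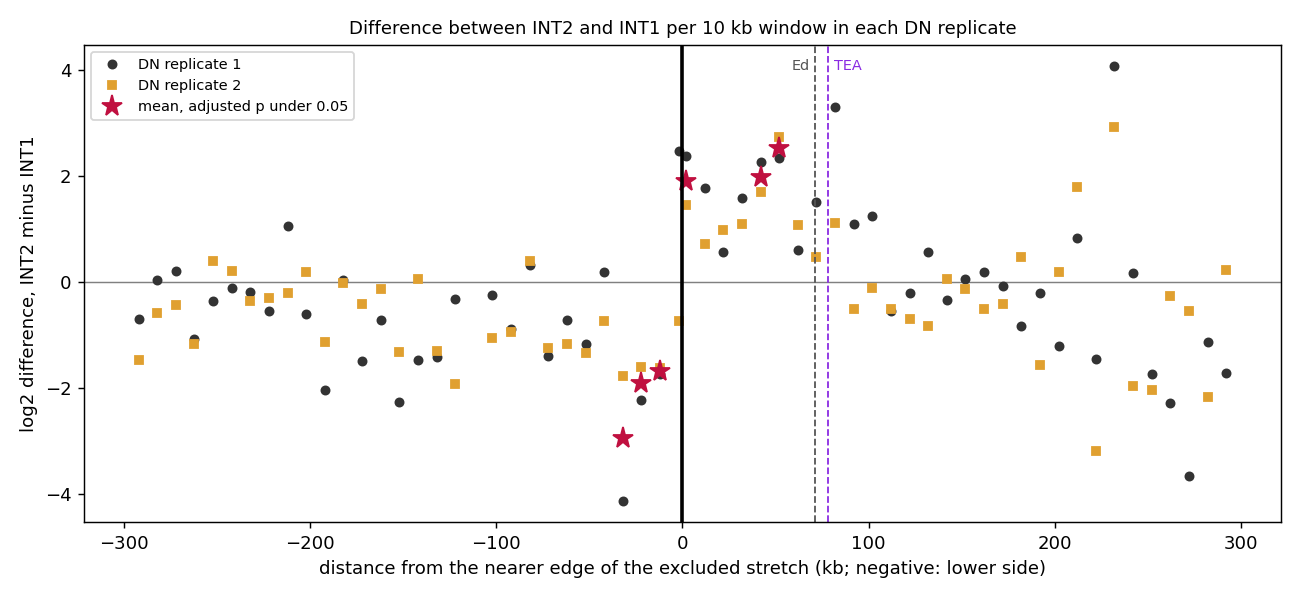
Log2 difference between INT2 and INT1 in each 10 kb window within 300 kb of the excluded stretch, separately for DN replicate 1 (circles) and replicate 2 (squares). Stars mark the mean in the 6 windows with an adjusted p under 0.05, of which 3 lie just below the stretch under 0 and 3 lie between the stretch and Ed above 0.

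Single HindIII fragments showed the same ordering with less certainty. Of 502 fragments tested within 1 Mb, out of 570 with reads in a DN profile, 0 (0%) passed an adjusted p of 0.05 with limma, 93 had an unadjusted p under 0.05, and edgeR also called 0. Over all of them 85 (16.9%) were higher from INT2 in both replicates and 232 (46.2%) from INT1 in both. Between the stretch and Ed, 18 of 21 fragments were higher from INT2 in both replicates and 0 from INT1, with a median log2 difference of 1.5. Around Ed and TEA the counts were 10 of 13 and 0, with a median of 1.28. In the last 200 kb below the stretch 40 of 59 were higher from INT1 in both replicates and 6 from INT2, with a median of -1.13. The median over all 502 fragments was -0.66.

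The fragment with the smallest p, chosen after its values were seen, was chr14:54741524-54748874, which fills the called window described above. INT1 had 0.585% and 0.652% there and INT2 had 2.99% and 4.33%, with an adjusted p of 0.0560 (limma). The TEA fragment had the next smallest p, with an adjusted p of 0.197.

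The 3 fragments next to the stretch differed between the sides. Above it, chr14:54693468-54699805 had 0.394% and 0.534% from INT1 and 2.04% and 1.47% from INT2. The next, chr14:54699812-54702503, had 0.0906% and 0.181% against 0.490% and 0.383%, and the third, chr14:54702510-54703108, had 0.178% and 0.260% against 0.417% and 0.369%. INT2 was higher in both replicates on all 3. Below it, the 3 nearest fragments, from chr14:54656400 to 54662185, had between 0.0108% and 0.121% of reads in all 4 profiles, and 2 of them differed in sign between the replicates. The ranges of the elements overlap on all 3, unlike those above the stretch.

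The largest differences of single fragments, 5 in each direction by the size of the log2 difference with the same sign in both replicates, were at fragments with many reads from 1 element and few from the other, and none passed (adjusted p between 0.197 and 0.331, limma). They lay between 230 and 849 kb from the stretch, farther than TEA. On chr14:54151731-54153655 INT1 had 0 reads in either replicate and INT2 had 724 in both together, at least 458-fold higher against a floor of 3 reads over both replicates. On chr14:55288610-55289411, chr14:53985652-53989732 and chr14:54933784-54934351 INT2 had 0 reads and INT1 had 1380, 1360 and 1296, at least 242-, 239- and 228-fold higher over both replicates. These bounds pool the reads of both replicates and need not hold within 1 replicate. In replicate 1 INT1 had 0.0518%, 0.0529% and 0.0282% on these 3 fragments, where 3 reads of the shallow INT2 profile are 0.00148%. On chr14:54301488-54311344 INT1 had 3842 reads and INT2 had 3, a ratio of shares of 675 (95% exact Poisson interval 231 to 3272 for counting error only). On chr14:54947612-54948109 the counts were 3756 and 2, a ratio of 990 (274 to 8171). On the other 4, all higher from INT2, the element with fewer reads had 14 to 506. At 1 of these 4, chr14:55541504-55545155, INT2 had 10 reads in replicate 1 and 4652 in replicate 2, and the ranges of the elements overlap.

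How alike the profiles were is given as a description over the same 502 fragments, which share their positions, lengths and the fall of contacts with distance. The correlation of log2 values was 0.69 between the INT1 replicates and 0.64 between the INT2 replicates. Between INT1 and INT2 it was 0.48 and 0.61 within replicates 1 and 2, and 0.55 and 0.53 across them. Of the 50 highest fragments of each profile, the INT1 replicates shared 37 and the INT2 replicates 36, and INT1 and INT2 profiles shared between 24 and 28. Among these highest fragments, profiles from 1 element thus had more in common than profiles of both elements from 1 sample. Over the 188 windows the order was not the same for both elements. The correlation was 0.85 between the INT1 replicates and 0.72 between the INT2 replicates, and between INT1 and INT2 it was 0.68 and 0.73 within replicates 1 and 2, and 0.75 and 0.69 across them. The INT2 replicates were thus no more alike by windows than some pairs of an INT1 and an INT2 profile.

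The contacts were then read in the other direction, from TEA, over the 12 fragments of the excluded stretch. No test was made, since fragments differ in length and in how well they are mapped. From TEA in DN thymocytes the fragment just above the INT2 viewpoint, chr14:54683880-54688070, took 8109 and 25021 RPM (reads per 1000000 mapped reads, replicates 1 and 2), 59.7% and 60.2% of the TEA reads in the stretch. The INT1 viewpoint fragment took 361 and 1839 RPM and the INT2 viewpoint fragment itself 542 and 388 RPM. The INT2 fragment and the 3 above it together held 84.6% and 85.0%, and the INT1 fragment and the 6 below it 13.8% and 14.2%. These groups span 12.5 and 15.4 kb. The INT2 side was higher in both replicates, 6.15-fold and 5.97-fold, and lies nearer to TEA. The centres of these groups lie farther apart than the 5.09 kb between the viewpoint centres, and distance was not accounted for. Most reads of the INT2 side were on the fragment just above INT2 and not on the viewpoint fragment. From Ed the whole stretch took 774 and 1905 RPM, and the INT1 and INT2 viewpoint fragments had 0 to 424 RPM. The INT2 fragment and the 3 above it held 18.1% and 3.22% of the Ed reads in the stretch, and the INT1 fragment and the 6 below it 8.25% and 70.8%, so the INT2 side was 2.19-fold the INT1 side in replicate 1 and 0.0455-fold in replicate 2. The replicates thus differed in direction from Ed. The fragment between the viewpoints, which is in neither group, held 73.7% and 25.9% of the Ed reads in the stretch. In replicate 2 the fragment chr14:54669842-54670393 (552 bp) alone held 40.3%.

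**Figure D5:**
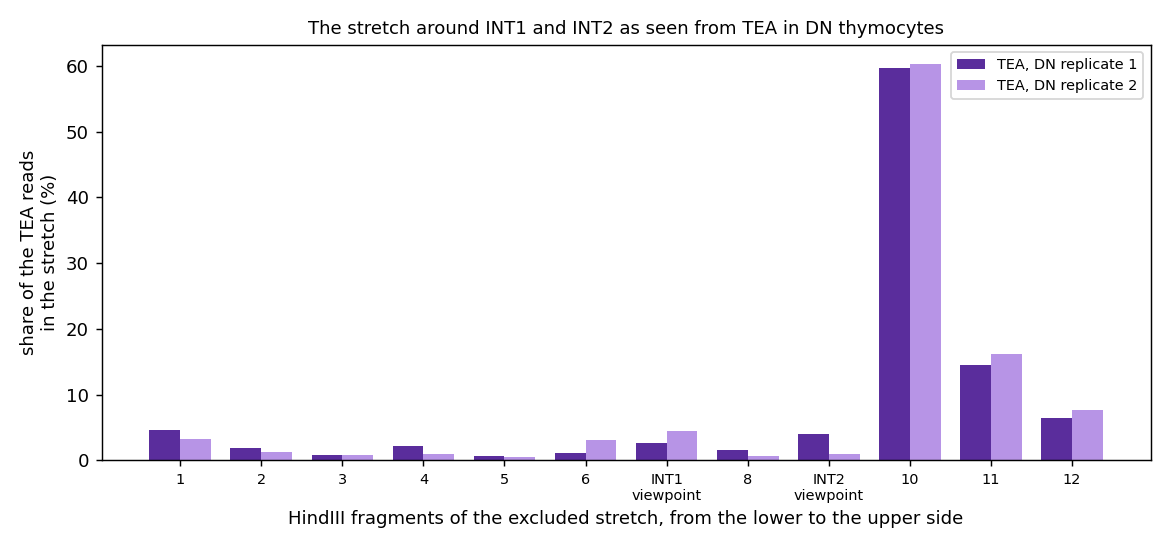
Share (%) of the TEA reads in the excluded stretch that fell on each of its 12 HindIII fragments, ordered from the lower to the upper side, in both DN replicates. The fragment just above the INT2 viewpoint fragment takes 59.7% and 60.2%.

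Whether the contrast between the elements was particular to DN thymocytes was asked by testing its difference from the same contrast in naive B cells, which differ in genotype and tissue as well. Between the stretch and Ed, B cells had 1.95% and 2.41% of reads from INT1 and 3.17% and 3.51% from INT2, a log2 difference of 0.62 ± 0.16 (SE, adjusted p = 0.276, limma), against 1.67 in DN thymocytes. The difference between the cell types was 1.04 ± 0.26 (SE) with an adjusted p of 0.353. No other region had an unadjusted p under 0.05, and 0 of 25 regions (0%) passed (limma, interaction of element and cell type with the sample as a block). With a mean-variance trend 3 regions passed above 0 and 1 below 0. On the TEA fragment B cells had 0.378% and 0.357% from INT1 and 0.954% and 0.745% from INT2, a log2 difference of 1.2 against 2.44 in DN, and the difference between the cell types was 1.24 ± 0.67 (SE, adjusted p = 0.443). In the 20 kb below the stretch the log2 difference was -1.76 in B cells (adjusted p = 0.142, limma) against -1.39 in DN, and INT1 was higher in both replicates of each.

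The side index within 1 Mb differed between the elements by 0.24 and 0.42 in B cells, against 1.71 and 0.92 in DN. The DN contrast was higher by 0.98, with p = 0.333 by the exact permutation test, the smallest that 2 samples against 2 allow. Closer to the elements B cells showed the contrast too. Within 20 kb the index differed by 3.67 and 1.41 in B cells and by 3.53 and 2.46 in DN, which overlap. Within 100 kb it differed by 1.71 and 0.54 in B cells and by 3.05 and 2.20 in DN. In B cells 28 of the same 188 windows (14.9%) were higher from INT2 in both replicates, among them 2 of the 6 windows between the stretch and Ed and 2 of the 3 around Ed and TEA. Reads within 1 Mb were 20.2% to 23.2% of chromosome 14 reads in B cells.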

How the data were processed

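The deposited files, 1 per profile, list HindIII fragments with their reads per mapped 1000000 (RPM), a normalization by the authors. Per the submitters' processing notes CASAVA and Bowtie were used with build mm9, without versions. Per the file headers fragments were padded by 40 bp. Fragments absent from a file were set to 0. All values (100%) were whole multiples of the RPM of 1 read within 0.01 read in the INT1, INT2 and Ed profiles, so reads were recovered there. Averaged files were not used.

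For each viewpoint, its fragment was taken as that of highest mean RPM over the 4 profiles. Fragments touching chr14:54667000-54693000 were left out and each profile was scaled to a total of 1000000 on chromosome 14 outside it. Region, 10 kb window and fragment values were tested as log2(value + 10) with limma 3.58.1 in R 4.3.3 (lmFit and eBayes, two-sided, Benjamini-Hochberg adjustment, threshold 0.05). Log2 differences on this scale understate changes of low values. The SE and p-value of each difference draw also on the spread of the other values in the same test. They are therefore not the spread of the 2 pairs alone. In the 20 kb below the stretch the pairs were -1.41 and -1.37 and the SE was 0.21. Windows and fragments needed a mean of 50 on this scale. The replicate was a block, because both elements were amplified from the same sample. With 2 pairs, the replicate differences of the elements correlated at 0.53 over 11 regions and -0.04 over 188 windows.

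Every region is named. Windows named are those past the threshold with both pairs of 1 sign, up to 10 per direction. As no fragment passed, the 5 per direction with the largest difference and the same sign in both pairs are named, with the Ed and TEA fragments and the 3 nearest the stretch on each side. The members, regions and rules were chosen with earlier results of these data known. Scripts were tested on simulated data. Alternatives were other scalings, pseudocounts of 1 and 100, filters, window sizes, fragment capping and single counting, edgeR 4.0.16 and DESeq2 1.42.0 on recovered reads, and each replicate left out. Added after the data were seen were regions and the side index without the Ed and TEA fragments, and regions without the 3 fragments next to the stretch, without the highest fragment of each region, or over the 11 regions that do not overlap. Python 3.11.15 with numpy 2.4.6, pandas 2.3.3, scipy 1.17.1 and matplotlib 3.10.9 made the tables and figures.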

Additional observations from a re-analysis of the deposited data

Results flagged for a closer look

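In 4 regions both DN replicates moved one way and both B cell replicates the other in the contrast of INT2 minus INT1. Each difference was tested as the interaction of element and cell type (limma, Benjamini-Hochberg over 25 regions), and none passed in the fit used throughout. With a mean-variance trend 3 of the 4 passed: the upper side within 1 Mb and the lower side of the chromosome (adjusted p = 0.001 each) and the upper side of the chromosome (adjusted p = 0.00132, limma). On the upper side within 1 Mb the DN contrast exceeded that in B cells by 0.68 on the log2 scale (0.86 and 0.36 in DN, -0.03 and -0.11 in B cells, adjusted p = 0.353). On the upper side of the whole chromosome it exceeded it by 0.37 (adjusted p = 0.443). On the lower side of the chromosome the DN contrast differed by -0.52 (adjusted p = 0.353), and on the part below 49.7 Mb by -0.25 (adjusted p = 0.546). The regions overlap, and the sides of the whole chromosome are shares that sum to 100%, so they are not separate results.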

How the results depend on the processing

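With 2 pairs the results kept their directions better than their calls, but several settings change only the test and could not turn a direction. Leaving out a replicate leaves 1 pair and no test: the log2 difference was 1.47 and 1.86 between the stretch and Ed, -1.06 and -0.79 in the last 200 kb below, and 0.92 and 1.71 for the side index. In the test of DN against B cells, 0 regions were called with any sample left out. Without the replicate block the paired calls changed: 8 regions were higher from INT2 (1 with the block), 0 windows were called in either direction (3 and 3 with it), 0 fragments were called, and the side index was 1.32 as before. The difference between DN and B cells had 0 calls without the block too, and 3 above 0 and 1 below 0 with a mean-variance trend. For the side index the difference was 3.00 over 20 kb, 2.63 over 100 kb and 1.998 over 200 kb on each side, 0.64 with capped fragments and 0.026 with each fragment counted once. Regions called higher from INT2 and from INT1 numbered 0 and 0 with a trend (stretch to Ed 1.67), with edgeR (1.67), with scaling beyond 1 Mb (1.83), with the widened stretch (1.69) and with fragments counted once (0.79). They numbered 7 and 0 with scaling to all chromosomes, 8 and 3 within 1 Mb (last 200 kb below -1.05, past the threshold), 9 and 1 with TMM factors and 2 and 1 with capped fragments. They numbered 3 and 3 without the Ed and TEA fragments, 8 and 3 without the 3 fragments next to the stretch, 6 and 3 without the highest fragment of each region and 2 and 1 over the 11 regions that do not overlap. In these 4 the last 200 kb below passed, at -0.93, -0.94, -0.92 and -0.93. Windows called higher from INT2 and from INT1 numbered 0 and 0 without the trend, with the stricter filter, in 5 kb windows and with edgeR, 1 and 0 with pseudocounts of 1 and 100, and 1 and 1 with capped fragments. They numbered 5 and 6 in 20 kb windows, 3 and 5 with scaling to all chromosomes, 5 and 8 within 1 Mb, 7 and 2 with TMM factors, 4 and 8 with the widened stretch and 10 and 4 with DESeq2. Fragments numbered 1 and 0 without the filter, 10 and 11 with a pseudocount of 100, 4 and 2 with all chromosomes, 7 and 6 beyond 1 Mb, 10 and 7 with TMM factors and 3 and 0 with the widened stretch. The cause of these changes was not tested. Regions of small difference changed sign. Below 49.7 Mb the value was 0.038 beyond 1 Mb, 0.18 with TMM factors and 0.11 with capping. From 49.7 to 53 Mb it was 0.10, 0.24 and 0.17 in these 3 settings, 0.0095 with single counting, and 0.078 and -0.21 without replicates 1 and 2. Above 57 Mb it was 0.0074, 0.15 and 0.077, and 0.056 and -0.37 without replicates 1 and 2. From 55.8 to 57 Mb it was -0.12 with scaling within 1 Mb, -0.24 without the highest fragment, -0.17 with single counting and -0.20 and 0.21 without replicates 1 and 2. Above TEA to 54.88 Mb it was 0.12 with TMM factors, 0.11 with capping and 0.75 with single counting. Single counting, where the median region lies at 0.74, also turned 53 to 53.8 Mb (0.27), 53.8 to 54.467 Mb (0.44), the last 200 kb below (0.80), 54.88 to 55.8 Mb (0.44), the bands 0 to 20, 20 to 100 and 100 to 500 kb below (0.78, 0.82 and 0.60), 100 to 500 kb above (0.74), the lower side within 1 Mb (0.53), and the lower and upper sides of the chromosome (0.026 and -0.022). The shallowest profile, INT2 in replicate 1, limits what can be said of fragments with few reads.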

Other observations

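Inside the excluded stretch the elements did not see each other equally. From INT1 the INT2 viewpoint fragment took 17358 and 15318 RPM in DN thymocytes and 14970 and 12684 RPM in B cells (replicates 1 and 2). From INT2 the INT1 viewpoint fragment took 638 and 1894 RPM in DN thymocytes and 412 and 220 RPM in B cells. The fragments differ in length, 564 bp for INT1 and 2886 bp for INT2, and no test was made. The fragment just above INT2, the highest of the stretch from TEA, took 30748 and 28706 RPM from INT2 and 5777 and 8730 RPM from INT1 in DN thymocytes. This fragment directly adjoins the INT2 viewpoint fragment and not that of INT1, so the 2 elements are not compared at like distance. It also lies in the stretch left out of every test. In B cells it took 92604 and 54352 RPM from INT2 and 2976 and 3040 RPM from INT1. From TEA it took 946 and 945 RPM in B cells, against 8109 and 25021 RPM in DN thymocytes. As a share of the TEA reads in the stretch this was 51.7% and 46.3% in B cells, against 59.7% and 60.2% in DN thymocytes. The INT2 fragment and the 3 above it held 75.2% and 76.6% in B cells, against 84.6% and 85.0% in DN thymocytes. The skew to the INT2 side from TEA was thus present in both cell types.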
